A study of Mus musculus with 6 samples.

Results

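The 8 genes described here are Idi1, Hmgcs1, Sqle, Fdps, Fdft1 and Lss, which encode enzymes of cholesterol synthesis, and Insig1 and Srebf2, which control it. Every non-control probe that the array names after one of these genes was taken, which gave 19 probes of 41174 on the array and 8 genes of 28032. None of the 8 acts in cholesterol uptake, so uptake genes are given from a separate list. Sqle had 1 probe and the others had 2 to 4. All 19 probes were tested, 15 were well above background on all 6 arrays and 0 were saturated on any array.

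Expression was measured in sorted thymic epithelial cells, the stroma that supports developing T cells, on 6 one-colour Agilent arrays. All mice were C57BL/6, 4 weeks old, and carried the BAC reporter transgene Tg(Meis1-EGFP)FO156Gsat/Mmcd, in which EGFP reports the regulatory sequence of the homeodomain gene Meis1. The gates therefore rest on reporter brightness and not on MEIS1 protein. Cells gated as CD45- and EpCAM+ were split into 3 gates. Meis1-high cells were EGFPhigh and FSClow, that is bright and small. Meis1-low cells were EGFPint and FSChigh, that is intermediate and large. Meis1-negative cells were EGFP- and FSClow, that is dark and small. EGFP and cell size both separate Meis1-high from Meis1-low and cannot be told apart there. There were 2 pools of 6 mice per gate, from independent experiments, and 10 ng of RNA per pool was amplified and labelled. Values are log2 signals relative to the 75th percentile of the same array, so each is a level of 1 probe and is compared only with that probe on other arrays.

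Cells make cholesterol from acetyl-CoA through mevalonate, isoprenoid diphosphates, squalene and lanosterol. The transcription factor SREBP2, encoded by Srebf2, is held in the endoplasmic reticulum by Insig proteins while sterols are plentiful. When sterols run low it is cleaved, enters the nucleus and binds sterol response elements in the promoters of the synthesis enzymes, often beside NF-Y and Sp1 sites. Dividing cells need cholesterol for new membrane, and the same mevalonate supplies the lipid groups attached to small GTPases.

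The array's 75th percentile lay between 73.4 and 164.9 signal units, and 53.1% to 69.6% of spots were well above background. The Meis1 level was 0.24 and 0.12 in the Meis1-high pools, -2.35 and -1.61 in those of Meis1-low, and -3.20 and -0.99 in those of Meis1-negative, so both Meis1-high arrays lay above the other 4 (log2 difference 2.16 ± 0.84 SE from Meis1-low, limma adjusted p = 0.351; 2.27 ± 0.84 from Meis1-negative, adjusted p = 0.423). Both Meis1-negative arrays held more CD45 transcript than those of the other gates, although all cells were gated as CD45-, and replicate 1 stood apart the most. Its summed signal over 14 thymocyte and T cell markers, in multiples of the 75th percentile, was 1224, against 32.0 in Meis1-negative replicate 2 and 11.4 to 22.0 in the other gates. Ptprc, which encodes CD45, was well above background on all 6 arrays. It was at 5.17 and 3.17 in Meis1-negative and at 0.43 or below elsewhere. Leaving out replicate 1 therefore does not remove CD45 transcripts from the Meis1-negative gate. Other leukocyte transcripts were not confined to Meis1-negative. Of 8 pan-leukocyte markers, 6 had a lower mean in Meis1-low than in Meis1-negative and 2, Cd52 and Laptm5, a higher one with overlap. Of 10 markers of dendritic cells and macrophages, 9 had a higher mean in Meis1-low and 1 a lower one. Csf1r and Mrc1, among the 9, were tested only because both Meis1-low arrays placed them well above background. Epcam was well above background on all 6 arrays, lowest on Meis1-negative replicate 1 (2.59, against 3.72 to 4.79). The differences of the 8 members and of the named sterol genes from Meis1-negative, and the medians of their lists, are therefore also given without Meis1-negative replicate 1. Fewer cells of a type and less RNA per cell cannot be told apart in such pools.

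None of the 8 genes passed an adjusted p of 0.05 in any comparison of gates, where 0% of 18214 genes did (limma over all genes tested, 2 arrays per gate). The lowest levels of Idi1, Hmgcs1, Sqle and Fdps were nevertheless those of the 2 Meis1-high arrays, which lay below the other 4 arrays for these 4 members. The same held for 12.3% of all genes tested. Idi1, which interconverts the isoprenoid building blocks IPP and DMAPP, differed most, with a log2 difference of -2.09 ± 0.64 (SE) from Meis1-low and -2.16 ± 0.64 from Meis1-negative. Insig1, Fdft1, Lss and Srebf2 showed no such separation.

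**Figure D1:**
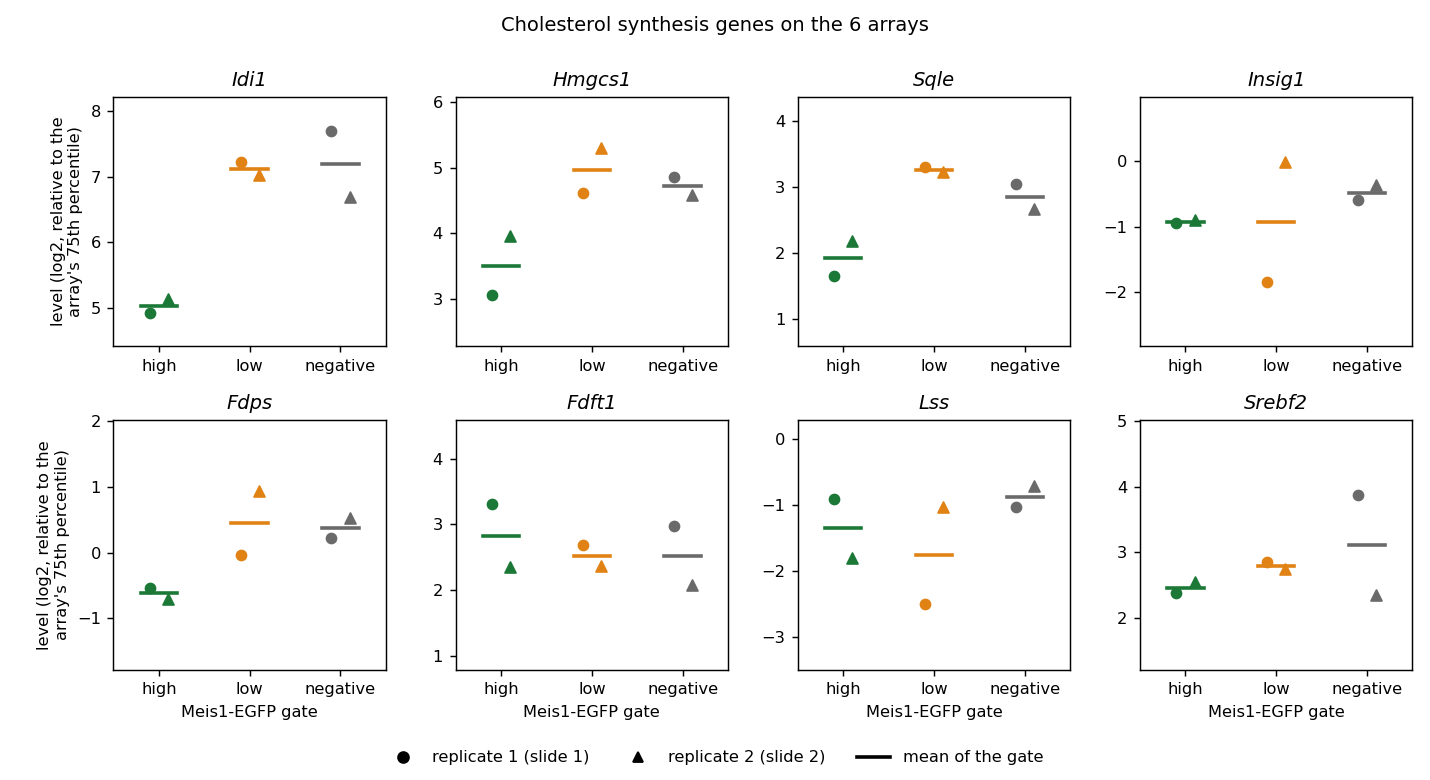
Levels of the 8 genes on the 6 arrays, 1 panel per gene, as log2 signal relative to the array's 75th percentile (each y axis spans the same number of log2 units). Circles are replicate 1 and triangles replicate 2, and the line is the mean of the gate. Both Meis1-high arrays lie lowest for Idi1, Hmgcs1, Sqle and Fdps, while the gates overlap for Fdft1.

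Hmgcs1 encodes the cytosolic synthase that makes HMG-CoA. Its brightest probe read 3.06 and 3.96 in the Meis1-high pools, 4.62 and 5.30 in those of Meis1-low, and 4.86 and 4.59 in those of Meis1-negative. The 2 Meis1-high arrays lay below all others. The log2 difference was -1.45 ± 0.65 (SE) from Meis1-low, a 2.73-fold lower signal (limma adjusted p = 0.409), and -1.21 ± 0.65 from Meis1-negative (adjusted p = 0.581). It was negative on both slides in both comparisons, at -1.56 and -1.34 against Meis1-low and -1.80 and -0.63 against Meis1-negative. Without Meis1-negative replicate 1 the difference from that gate was -1.08. A second probe (A_52_P388072) read 0.45 and 0.37 in the Meis1-high pools, 1.75 and 1.34 in those of Meis1-low, and 1.82 and 0.91 in those of Meis1-negative, with the same separation. The third (A_52_P119039), weak and not well above background on 1 Meis1-high array, overlapped between gates, and all 3 slide 2 arrays lay above all 3 slide 1 arrays. All 3 probes map to mm9 chr13_random, the unplaced sequence of chromosome 13. The brightest and the second start at positions 114807 and 117667. The third starts at 315347 and is assigned to another transcript record.

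Idi1 encodes isopentenyl-diphosphate isomerase. Its brightest probe read 4.93 and 5.14 in the Meis1-high pools, 7.22 and 7.03 in those of Meis1-low, and 7.70 and 6.69 in those of Meis1-negative. The gap between the highest Meis1-high array and the lowest other array was wider than the spread within any gate. The Meis1-high signal was 4.25-fold lower than in Meis1-low (95% interval of the log2 difference -3.58 to -0.60, limma adjusted p = 0.280) and 4.48-fold lower than in Meis1-negative (-3.65 to -0.67, adjusted p = 0.347). The differences by slide were -2.28 and -1.89 from Meis1-low, and -2.77 and -1.56 from Meis1-negative. Without Meis1-negative replicate 1 the difference from that gate was -1.66. A moderated F test over the gates gave an adjusted p of 0.344. With normexp background correction the call changed, with log2 differences of -1.99 (adjusted p = 0.0329) and -2.31 (adjusted p = 0.0045), the only member called in either comparison under any alternative run. Meis1-low and Meis1-negative overlapped, with a log2 difference of -0.077 and a 95% interval of -1.57 to 1.41.

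The other Idi1 probe (A_52_P441634) spans 405 bases of mm9 chr13:8886802-8887206 with 60 bases of probe, so its mapping crosses an intron and it reads spliced RNA. It read -1.27 and -0.046 in the Meis1-high pools, 0.62 and 1.50 in those of Meis1-low, and 2.18 and 0.76 in those of Meis1-negative. Both Meis1-high arrays again lay below the other 4. The log2 differences were -1.72 ± 0.80 (SE) from Meis1-low and -2.13 ± 0.80 from Meis1-negative, within 1 SE of those of the brightest probe. The probes of Idi1, Fdps, Fdft1 and Insig1 that cross an intron are shown here since they read spliced transcripts and carry the values of these genes (except Idi1, whose brightest probe maps without a gap). Each is the array's own 60-base sequence.
Idi1 A_52_P441634: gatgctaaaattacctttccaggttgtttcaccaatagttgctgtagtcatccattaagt
Fdps A_51_P379798: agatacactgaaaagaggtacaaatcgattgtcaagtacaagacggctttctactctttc
Fdft1 A_51_P485946: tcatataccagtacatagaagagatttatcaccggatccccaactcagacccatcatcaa
Insig1 A_52_P393392: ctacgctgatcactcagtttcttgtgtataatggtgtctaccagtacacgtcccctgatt

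Fdps encodes farnesyl diphosphate synthase, at the branch towards sterols and prenyl groups. The intron-crossing probe, at mm9 chr3:88898812-88898952, read -0.54 and -0.70 in the Meis1-high pools, -0.036 and 0.93 in those of Meis1-low, and 0.21 and 0.53 in those of Meis1-negative. The Meis1-high arrays were the lowest. The log2 difference was -1.07 ± 0.63 (SE) from Meis1-low (limma adjusted p = 0.529) and -0.99 ± 0.63 from Meis1-negative (adjusted p = 0.639; -1.15 without Meis1-negative replicate 1). The second probe (A_52_P593965), assigned to another transcript record, went the other way. It read -0.40 and -1.32 in the Meis1-high pools, -2.94 and -0.74 in those of Meis1-low, and -2.42 and -0.50 in those of Meis1-negative, with log2 differences of 0.98 and 0.60. On slide 1 this probe gave 2.54 against Meis1-low and on slide 2 -0.58, so its sign differed between the slides, which also held different pools. The lower Fdps level rests on 1 probe of 2. With both probes averaged, the Fdps difference from Meis1-low was -0.042.

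Fdft1 and Sqle act on squalene: squalene synthase, from Fdft1, makes it, and squalene epoxidase, from Sqle, oxidises it in a rate-controlling step. The Fdft1 probe that crosses an intron (mm9 chr14:63765769-63770009) read 3.30 and 2.35 in the Meis1-high pools, 2.68 and 2.36 in those of Meis1-low, and 2.98 and 2.07 in those of Meis1-negative. The gates overlapped, and slide 1 was above slide 2 in each gate. The log2 differences were 0.31 ± 0.67 (SE) from Meis1-low and 0.30 ± 0.67 from Meis1-negative, with 95% intervals of -1.27 to 1.89 and -1.28 to 1.88. The second was 0.76 without Meis1-negative replicate 1. The other Fdft1 probe was not well above background on 1 array and showed the same slide order.

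Sqle read 1.65 and 2.18 in the Meis1-high pools, 3.30 and 3.23 in those of Meis1-low, and 3.04 and 2.67 in those of Meis1-negative. Here the 3 gates did not overlap, with Meis1-low highest and Meis1-high lowest. The log2 difference was -1.34 ± 0.60 (SE) from Meis1-low, a 2.54-fold lower signal (limma adjusted p = 0.406), and -0.94 ± 0.60 from Meis1-negative (adjusted p = 0.639). By slide it was -1.65 and -1.04 from Meis1-low, and -1.39 and -0.48 from Meis1-negative. Without Meis1-negative replicate 1 it was -0.75 from that gate. Meis1-low exceeded Meis1-negative by 0.41 ± 0.60, less than the standard error.

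Lss encodes lanosterol synthase, which closes the sterol ring system. Its brightest probe read -0.90 and -1.80 in the Meis1-high pools, -2.50 and -1.03 in those of Meis1-low, and -1.03 and -0.71 in those of Meis1-negative. Meis1-high overlapped with both other gates. The log2 difference from Meis1-low was 0.41 ± 0.73 (SE), made of 1.60 on slide 1 and -0.77 on slide 2. That from Meis1-negative was -0.48 ± 0.73 (-0.64 without Meis1-negative replicate 1), and Meis1-low lay -0.89 ± 0.73 from Meis1-negative. These 2 gates only just failed to overlap, with their nearest arrays at -1.0308 and -1.0297. The other Lss probes were well above background on 5 and 4 arrays and overlapped between gates.

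Of the regulators, Insig1 retains the SREBP complex in the endoplasmic reticulum and is itself an SREBP target. Its intron-crossing probe (mm9 chr5:28401146-28401618) read -0.95 and -0.89 in the Meis1-high pools, -1.84 and -0.010 in those of Meis1-low, and -0.60 and -0.36 in those of Meis1-negative. The Meis1-low arrays bracketed all others, and the slides gave 0.88 and -0.88 between Meis1-high and Meis1-low. The difference from Meis1-negative was -0.44 ± 0.75 (SE; -0.56 without Meis1-negative replicate 1), with both Meis1-high arrays below both Meis1-negative arrays. The other Insig1 probe gave log2 differences of -0.69 and -0.72.

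Srebf2 encodes SREBP2. Its brightest probe read 2.39 and 2.55 in the Meis1-high pools, 2.86 and 2.75 in those of Meis1-low, and 3.88 and 2.36 in those of Meis1-negative. Meis1-high was below Meis1-low on both slides, by a log2 difference of -0.34 ± 0.70 (SE, 95% interval -1.98 to 1.30). Against Meis1-negative it was -0.65 ± 0.70, and 0.11 without Meis1-negative replicate 1, which held the highest value. The other 3 probes gave log2 differences of 0.21, 0.35 and -0.41 from Meis1-low, so the probes of this gene did not share a sign. SREBP2 activity is set by cleavage of the protein, which an array does not measure.

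**Figure D2:**
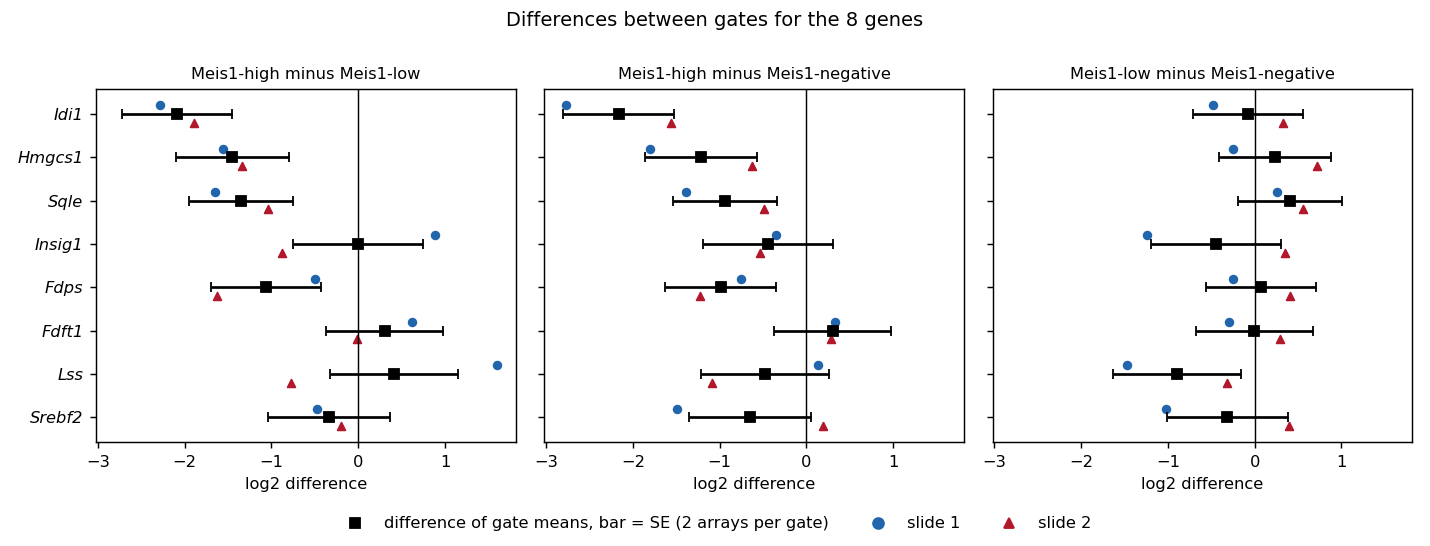
Log2 differences between gates for the 8 genes. Squares are differences of gate means with the standard error from limma, circles the slide 1 difference and triangles the slide 2 difference. Idi1, Hmgcs1, Sqle and Fdps lie left of 0 on both slides in both comparisons of Meis1-high, and most differences between Meis1-low and Meis1-negative lie within 1 standard error of 0.

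Over the 8 genes, 6 had a lower mean in Meis1-high than in Meis1-low and 7 had a lower mean than in Meis1-negative. The median log2 difference was -0.70 against Meis1-low, where all genes tested had -0.15, and -0.79 against Meis1-negative, where all genes had -0.10. The former depended on the processing, at -0.20 with the probes of a gene averaged, -0.40 with normexp background correction and -1.11 without Meis1-low replicate 1. Without Meis1-negative replicate 1, 6 members were lower than in that gate and the median was -0.69. Meis1-high was lower without overlap for 5 members against Meis1-low, where 31.1% of genes were, and for 5 against Meis1-negative, where 20.0% were. No member was higher without overlap, against 22.6% and 19.3% of genes. It was lower on both slides for 5 members in each comparison, against 40.8% and 30.8% of genes, and higher on both slides for 0 and 1 (Fdft1), against 31.5% and 28.4%. An unadjusted p under 0.05 with a lower Meis1-high level was reached by Idi1 alone in each, and by 8.27% and 4.83% of genes. None reached it with a higher level, as 4.67% and 5.69% of genes did. Between Meis1-low and Meis1-negative 5 members had a lower mean in Meis1-low and 3 a higher one, and the median was -0.040. Sqle was higher without overlap (23.4% of genes), and Lss lower, where the gates only just failed to overlap (15.8% of genes). On both slides, 1 member was lower and 1 higher (28.7% and 33.8% of genes), and no member had an unadjusted p under 0.05 (5.01% of genes on the higher side and 3.06% on the lower).

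Read probe by probe, 13 of 19 were lower in Meis1-high than in Meis1-low, 8 of them without overlap (28.1% of probes were), and 15 were lower than in Meis1-negative, 10 without overlap (19.8%). None was higher without overlap in either, against 24.0% and 19.6% of probes. Among the 15, the Lss probe A_52_P118161 (log2 difference -0.32, overlapping) was tested only because both Meis1-negative arrays placed it well above background. Its direction against that gate was therefore partly set by the filter. For 7 probes, of Idi1, Hmgcs1, Sqle, Fdps and Srebf2, the Meis1-high arrays lay below the other 4, as for 11.2% of probes. For 5 member probes the arrays of the 2 slides, which also held different pools, did not overlap. Slide 2 was higher for 1 probe each of Hmgcs1, Lss and Srebf2 (8.34% of probes) and slide 1 for both Fdft1 probes (7.06%). The array assigned the probes of Hmgcs1, Fdps, Lss and Srebf2 to more than 1 transcript record per gene. Probes of 1 gene were read on the same pools and are not replicates.

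**Figure D3:**
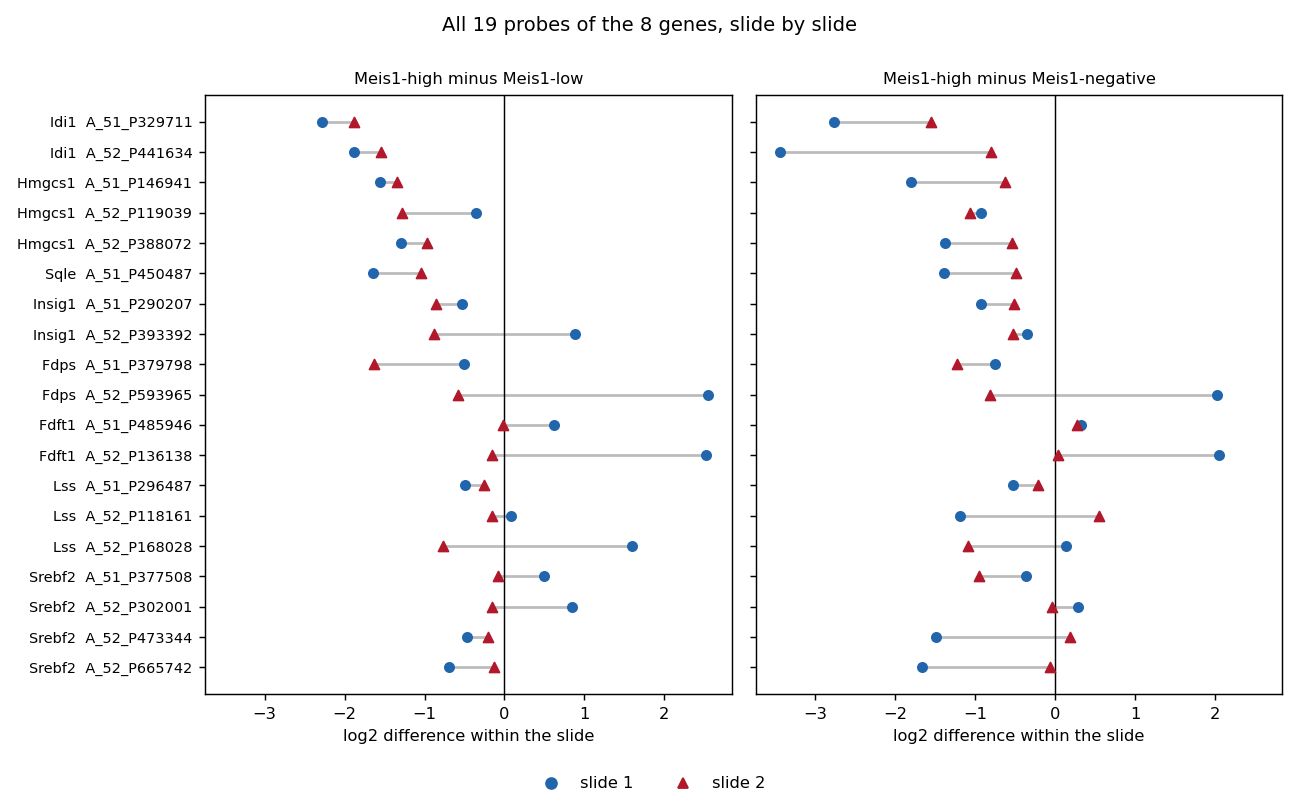
Differences within each slide for all 19 probes of the 8 genes, Meis1-high against Meis1-low and against Meis1-negative, in log2 units, with slide 1 as circles and slide 2 as triangles joined by a line. Both Idi1 probes, the 3 Hmgcs1 probes and the Sqle probe lie below 0 on both slides in both panels, and the 2 Fdps probes lie on opposite sides of 0 on slide 1.

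Promoter sequence was given for 5 of the 8 genes, Hmgcs1, Idi1, Insig1, Lss and Srebf2, in RefSeq windows of GRCm38.p6 from 250 bases before the transcript start to 50 after it. Searched on both strands were TCACNCCAC, a relaxed sterol response element, its core CACNCCA, which lies inside it, the NF-Y motif CCAAT and the Sp1 motif GGGCGG. The relaxed element was in 1 of the 5 windows, that of Hmgcs1, and in 1.24% of 32851 windows. The core was in 3 of 5 (Hmgcs1, Insig1 and Srebf2) and in 18.4% of windows. CCAAT was in 5 of 5 and in 37.4% of windows, and GGGCGG in 5 of 5 and in 35.7%. The core and CCAAT occurred together in 3 of 5 and in 6.76% of windows. A match is a run of letters and not a measured binding site. The 250 bases before the start are shown for Hmgcs1 and Idi1, whose levels were lowest in Meis1-high, and for Srebf2, whose probes disagreed. Capitals mark the sterol element or its core and CCAAT on either strand (ATTGG), the plus strand is printed, and the windows are chr13:119690101-119690350, chr13:8885356-8885605 and chr15:82147019-82147268 of GRCm38.p6.
Hmgcs1: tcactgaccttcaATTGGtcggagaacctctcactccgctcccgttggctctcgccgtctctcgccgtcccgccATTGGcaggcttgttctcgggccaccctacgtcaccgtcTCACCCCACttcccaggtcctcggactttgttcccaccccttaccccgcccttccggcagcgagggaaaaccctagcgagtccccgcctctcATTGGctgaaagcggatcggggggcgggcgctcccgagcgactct
Idi1: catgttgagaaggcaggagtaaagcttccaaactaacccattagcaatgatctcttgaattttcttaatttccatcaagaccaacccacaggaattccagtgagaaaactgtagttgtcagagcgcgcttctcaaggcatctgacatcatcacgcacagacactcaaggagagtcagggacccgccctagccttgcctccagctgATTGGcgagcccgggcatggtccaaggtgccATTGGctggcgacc
Srebf2: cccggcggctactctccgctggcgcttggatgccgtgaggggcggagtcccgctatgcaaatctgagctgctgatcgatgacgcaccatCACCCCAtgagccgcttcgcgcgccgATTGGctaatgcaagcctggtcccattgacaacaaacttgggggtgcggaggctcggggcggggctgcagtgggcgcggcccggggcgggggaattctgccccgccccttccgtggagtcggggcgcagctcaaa
In Hmgcs1 the relaxed element begins at position -137 from the start, with 2 CCAAT matches before it and 1 after it in the printed stretch. Idi1 has 2 CCAAT matches close to its start. In Srebf2 the core begins at -161 and a CCAAT match follows at -135.

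The enzymes on either side of the members were described from wider lists of the pathway. Of 16 other enzymes from acetyl-CoA to cholesterol, 14 had a lower mean in Meis1-high than in Meis1-low and 14 than in Meis1-negative, with medians of -0.76 and -1.01, and 9 were lower without overlap in each, as 31.1% and 20.0% of all genes were. Among those lower than in Meis1-negative, Mvk was tested only because both arrays of that gate placed it well above background. Its direction there was therefore partly set by the filter. None of the 16 passed an adjusted p of 0.05 (limma). An unadjusted p under 0.05 with a lower Meis1-high level was reached by 2 and 3 of them, and by 8.27% and 4.83% of all genes. Among the mevalonate steps, Mvd, the decarboxylase that makes the substrate of Idi1, read -1.16 and -0.97 in the Meis1-high pools, 0.24 and 0.37 in those of Meis1-low, and 0.28 and 0.50 in those of Meis1-negative. Its log2 differences were -1.37 ± 0.58 (SE, adjusted p = 0.384) and -1.46 ± 0.58 (adjusted p = 0.452), with the Meis1-high arrays lowest. The second was -1.57 without Meis1-negative replicate 1, where the median of the 6 mevalonate and squalene enzymes against that gate was -1.07. Idi2, a paralogue of Idi1, read -2.52 and 0.16 in the Meis1-high pools, 3.80 and 2.66 in those of Meis1-low, and -0.44 and 1.88 in those of Meis1-negative, with a log2 difference of -4.42 ± 1.13 from Meis1-low (adjusted p = 0.254). From Meis1-negative its difference was -1.90, with the gates overlapping, and -3.06 without Meis1-negative replicate 1.

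Among the steps from lanosterol to cholesterol, 9 of 10 were lower than in Meis1-low and 8 of 10 than in Meis1-negative. Msmo1, the methylsterol monooxygenase, read 2.89 and 3.12 in the Meis1-high pools, 4.37 and 4.43 in those of Meis1-low, and 5.26 and 4.13 in those of Meis1-negative. Its log2 differences were -1.40 ± 0.65 (SE, limma adjusted p = 0.423) and -1.69 ± 0.65 (adjusted p = 0.437; -1.13 without Meis1-negative replicate 1). Cyp51, the lanosterol demethylase, gave log2 differences of -1.11 and -0.74 (the latter -0.998 without Meis1-negative replicate 1). For Msmo1 and Cyp51 both Meis1-high arrays lay below the other 4. Lbr and Dhcr7, the sterol reductases, gave -2.37 and -2.07 against Meis1-negative, with Meis1-negative replicate 1 at 4.00 and 3.28 and its partner at 1.42 and 0.53. Without Meis1-negative replicate 1, 7 of these 10 enzymes were lower than in that gate and the median was -0.55, with Lbr at -1.08 and Dhcr7 at -0.70.

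Of 11 genes of cholesterol uptake and transport, 9 had a lower mean than in Meis1-low and 10 than in Meis1-negative, with medians of -0.33 and -0.72 (-0.24 against Meis1-negative without its replicate 1). Lrp8, an apolipoprotein E receptor, read -0.80 and 1.12 in the Meis1-high pools, 2.99 and 3.59 in those of Meis1-low, and 2.47 and 3.28 in those of Meis1-negative (log2 differences -3.13 ± 0.81 SE, limma adjusted p = 0.254; -2.72 ± 0.81, adjusted p = 0.347). Vldlr, the VLDL receptor, went the other way, at 1.54 and 0.99 in the Meis1-high pools, -1.10 and -1.55 in those of Meis1-low, and -0.035 and -0.89 in those of Meis1-negative, with log2 differences of 2.59 ± 0.64 (adjusted p = 0.254) and 1.73 ± 0.64 (adjusted p = 0.430). The differences from Meis1-negative were -3.12 for Lrp8 and 2.15 for Vldlr without its replicate 1.

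The list of cholesterol efflux and oxysterol receptors (LXR) lay on the opposite side. It held Abca1, Abcg1, Apoe, the receptor genes Nr1h2 and Nr1h3, and also Mylip and Lpcat3, which are neither efflux nor receptor genes. Of the 7, 6 were higher in Meis1-high than in Meis1-low and 6 than in Meis1-negative. The medians were 0.50 and 1.31 (0.72 against Meis1-negative without its replicate 1). The median against Meis1-low was 1.18 with the probes of a gene averaged, 0.98 without Meis1-high replicate 2, 0.79 without Meis1-low replicate 1 and 1.02 without Meis1-low replicate 2. In these comparisons 3 and 2 of the 7 were higher without overlap (22.6% and 19.3% of all genes). On both slides 5 and 3 were higher (31.5% and 28.4%). The exceptions were Nr1h3, at -0.60 against Meis1-low, and Abcg1, at -0.89 against Meis1-negative (-0.097 without its replicate 1). Apoe, the apolipoprotein that carries exported cholesterol, read 5.24 and 5.05 in the Meis1-high pools, 2.60 and 3.06 in those of Meis1-low, and 0.99 and 3.33 in those of Meis1-negative. Abca1, a cholesterol exporter, read 2.81 and 2.73 in the Meis1-high pools, 1.63 and 1.55 in those of Meis1-low, and 0.61 and 1.45 in those of Meis1-negative. For both genes the Meis1-high arrays were above the other 4. The log2 differences were 2.32 ± 0.85 and 2.99 ± 0.85 (SE) for Apoe (limma adjusted p = 0.328 and 0.342), and 1.18 ± 0.62 and 1.74 ± 0.62 for Abca1 (adjusted p = 0.475 and 0.407). Ch25h, which makes the oxysterol 25-hydroxycholesterol, gave 2.24 ± 0.88 and 3.01 ± 0.88 (adjusted p = 0.357 and 0.347). Leaving out Meis1-negative replicate 1 gave differences from that gate of 1.82 for Apoe, 1.32 for Abca1 and 1.84 for Ch25h. The 5 tested genes of its list, esterification and oxysterols, had medians of -0.63 and 0.29 (-0.23 against Meis1-negative without its replicate 1). Genes of SREBP processing had medians of -0.11 and -0.019 (0.31 against Meis1-negative without its replicate 1), those of the isoprenoid branch -0.34 and -0.16 (0.033), and those of fatty acid synthesis, targets of SREBP1, -0.34 and -0.45 (0.32, with 4 of 11 genes lower). Against Meis1-low the isoprenoid median was 0.035 with the probes of a gene averaged and 0.033 without Meis1-high replicate 2, and the fatty acid median was 0.20 without Meis1-low replicate 1, so the sign of either median turned with 1 array left out. In all, 0 of the 69 wider sterol genes tested were called in any comparison, where 3 and 5 had an unadjusted p under 0.05 on the higher and lower side against Meis1-low (4.67% and 8.27% of all genes), and 4 and 7 against Meis1-negative (5.69% and 4.83%).

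**Figure D4:**
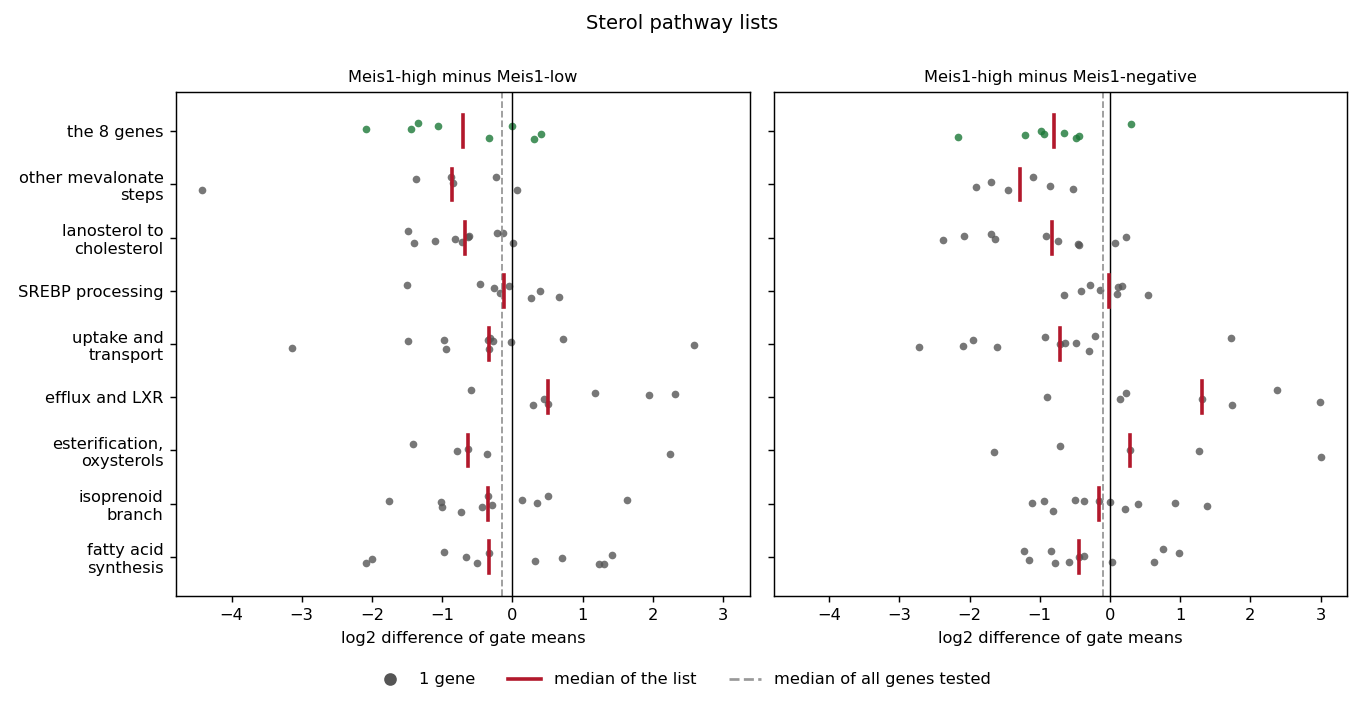
Log2 differences of gate means for the 8 genes (green) and the genes of 8 wider sterol and lipid lists (grey), 1 point per gene, with the median of each list in red and that of all genes tested as a dashed line. The 8 genes and the other synthesis enzymes have medians between -0.67 and -1.28, and efflux and LXR genes have medians of 0.50 and 1.31.

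Markers of other cells and of division also differed between the gates. All 18 cell cycle genes were lower in Meis1-high than in Meis1-low and than in Meis1-negative, with median log2 differences of -1.29 and -1.78 and summed signals of 33.2 to 37.5 in the Meis1-high gate, 68.4 to 74.7 in the Meis1-low gate and 70.2 to 206.8 in the negative one. Without Meis1-negative replicate 1 the cell cycle median against that gate was -1.20. The 12 thymic epithelium markers summed to 495 and 566, 231 to 305, and 62.1 to 246 in the same gates. In the comparisons with Meis1-low and with Meis1-negative, Meis1-high had the lower mean for 6 and 7 of 8 pan-leukocyte markers, 9 and 14 of 14 thymocyte markers, and 4 and 5 of 6 B cell markers. Against Meis1-low, 9 of 10 markers of dendritic cells and macrophages were lower (sums 13.5 and 14.9, against 43.4 and 46.1), as were 7 of 7 erythroid markers (1.93 and 2.73, against 8.67 and 9.60) and 3 of 3 adipocyte markers (20.9 and 33.2, against 80.6 and 127.8). Fibroblast and endothelial markers were lower for 3 of 7 and 2 of 3. Itgax, Csf1r, Mrc1, Hba-a1, Epb42, Klf1, Adipoq, Pax5, Cspg4 and Plvap were tested only because both Meis1-low arrays placed them well above background. The same held for Cd79a through Meis1-negative and for Ebf1 through Meis1-high. The direction of these genes against that gate was therefore partly set by the filter. Cd53, Hbb-bh1, Cd2, Cd4, Lck, C1qc, Slc4a1, Ms4a1 and Aurkb passed through Meis1-low and Meis1-negative but not through Meis1-high. Their direction in comparisons of Meis1-high was likewise partly set by the filter. The part of these markers in the sterol gene differences was not tested.

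The 6 genes outside the sterol lists whose levels followed the mean of the 8 members most closely over the 6 arrays were Plpp4 (Pearson r = 0.991), Nsg1 (0.985), Spns3 (0.982), 2 transcripts known only by array names and Ero1a (0.975), an endoplasmic reticulum oxidase. In the Meis1-high pools Plpp4 read -5.16 and -5.06 and Spns3 -5.19 and -4.56. These levels lie below those of the member probes that were not well above background on the same arrays. The arrays share gates and slides, and the 6 genes are the best of all genes tested, so the correlations describe these arrays only. Among the members, the correlation with that mean was 0.898 for Idi1, 0.876 for Hmgcs1, 0.877 for Fdps, 0.790 for Sqle, 0.641 for Srebf2, 0.511 for Insig1, 0.314 for Lss and -0.19 for Fdft1, each over 6 arrays and with the member itself in the mean.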

How the data were processed

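Gene expression was measured on 6 one-colour arrays, 2 per gate. Agilent Feature Extraction 9.5.3.1 is the tool named in the submitters' processing notes. Per the file headers, the authors' scanner signal is an intensity after background subtraction, with probe positions on mm9. The authors' deposited value table is on a log2 scale with each probe centred on its median (100% of rows have median 0) and served as an alternative.

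Control spots and outlier spots were left out, spots were averaged per probe, and log2 values were set relative to the 75th percentile of their array. The test took the 26581 of 41174 probes that both arrays of some gate placed well above background (13 SD, per the file headers). A gene was represented by the probe with the highest mean, giving 18214 genes, with symbols updated through RefSeq accessions (GRCm38.p6 table) (26682 probes), other listed accessions (93), symbols (5132) or synonyms (933), while 8334 kept the file's name. R 4.3.3 and limma 3.58.1 fitted 1 mean per gate over all 6 arrays (3 residual and 4.33 prior degrees of freedom). P-values were adjusted by Benjamini-Hochberg over all genes, with a threshold of 0.05, and the fit was tested on simulated data. The number of arrays limits the precision.

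Replicate 1 of all gates shared slide 1 and 1 scan, and replicate 2 slide 2 and another scan, per the file headers. The slide, the scan and the pool of mice therefore cannot be told apart. Deviations of same-numbered arrays correlated at 0.209, 0.128 and 0.125 between the gates, so slide was also fitted as a block. The members and the gene lists were chosen with earlier results of these data known. Named genes were the 8 members, Meis1, genes of the wider sterol lists, the 6 genes most like the members' mean, and markers beside a result. Some genes of the wider lists are not reported here by name. Figures were drawn with Python 3.11.15, matplotlib 3.10.9 and pandas 2.3.3.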

Additional observations from a re-analysis of the deposited data

How the results depend on the processing

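Each member difference was recomputed under 18 alternatives, which gave 406 values with the same direction and side of the threshold, 24 reversed and 2 that passed it. The Idi1 difference kept its sign throughout, between -2.19 and -1.90 against Meis1-low (adjusted p of 0.0329 or above) and between -2.67 and -1.66 against Meis1-negative (0.0045 or above). With slide as a replicate block, the adjusted p of Idi1 was 0.262 and 0.351, and the block changed no call. Normexp background correction called 1 member (Idi1) in each comparison of Meis1-high and in the F test, 3 wider sterol genes against Meis1-low (Apoe, Idi2, Lrp8) and 5 against Meis1-negative (among them Apoe, Ch25h, Lrp8 and Lbr), and 232, 302 and 122 of all genes. Median scaling called 74 genes for Meis1-high against Meis1-negative and 13 for Meis1-low against Meis1-negative, and moved the former's median over all genes from -0.10 to -0.20. A variance trend with robust fitting called 4. Quantile scaling left 3 members lower in Meis1-low than in Meis1-negative, against 5. Normexp background correction, median scaling and averaging the probes of a gene each gave 6. The cause was not tested.

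Leaving out each array in turn called 0 to 5 wider sterol genes and 0 to 946 genes overall for Meis1-high against Meis1-negative, and 0 to 4 and 0 to 1260 for Meis1-low against that gate, the highest without Meis1-negative replicate 2, where Meis1-negative replicate 1 stood alone for its gate and was taken to vary like the others. Members lower in Meis1-low than in Meis1-negative numbered 3 without Meis1-negative replicate 1 and up to 5 with any other array left out. Several small differences reversed. With all arrays kept these were Insig1 against Meis1-low (0.038, normexp) and, for Meis1-low against Meis1-negative, Fdps (-0.054 normexp, -0.020 median scaling, -0.15 mean of probes), Idi1 (0.092, quantile) and Fdft1 (0.051 quantile, 0.027 the authors' deposited values). With 1 array left out, the ranges against Meis1-low were -0.91 to 0.91 for Insig1, -0.17 to 0.78 for Fdft1 and -0.32 to 1.15 for Lss. Against Meis1-negative they were -0.17 to 0.78 for Fdft1 and -1.41 to 0.11 for Srebf2. For Meis1-low against Meis1-negative they were -0.58 to 0.43 for Idi1, -0.11 to 0.58 for Hmgcs1, -1.35 to 0.47 for Insig1, -0.41 to 0.56 for Fdps, -0.46 to 0.45 for Fdft1 and -1.07 to 0.45 for Srebf2. Members with both Meis1-high arrays below all others numbered 3 to 5 over the alternatives. Weak signals limit 4 member probes that were not well above background on every array, 1 each of Hmgcs1 and Fdft1 and 2 of Lss.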
